A study of Mus musculus with 8 samples.

Results

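In hearts of *Rnaseh1* knockout and wild-type mice, 102 predicted small nucleolar RNA (snoRNA) genes that still carry a placeholder Gm symbol gave reads in small RNA sequencing, of 54531 annotated features in all. They were chosen by gene type, by name, by a mean level above 0 and by lying outside *Gas5*, *Rian* and the Snhg genes. snoRNAs guide the chemical modification of ribosomal and spliceosomal RNA. Box C/D snoRNAs carry a C box near the 5′ end and a D box near the 3′ end and direct ribose methylation. Box H/ACA snoRNAs end shortly after an ACA triplet and direct pseudouridylation. In mammals most of them lie in introns of host genes, many of which encode ribosomal proteins or translation factors, and are released when the spliced intron is trimmed. Snord and Snora symbols mark snoRNAs of these classes, whereas a Gm symbol is the placeholder that mouse annotation gives to a predicted gene.

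The libraries came from hearts of 24-week-old C57BL/6 mice, 4 with conditional *Rnaseh1* knockout and 4 labelled wild type. In the knockout mice, loxP-flanked *Rnaseh1* was removed by Cre recombinase expressed from the muscle creatine kinase promoter (Ckmm-cre), so the loss was directed to heart and skeletal muscle and other cells of the heart keep the gene. The labels give heart tissue and wild-type controls (+/+). The study's methods instead describe RNA from isolated heart mitochondria and control mice with loxP alleles and no Cre. The names of the deposited single-library columns begin with mtRNA, which goes with the RNA source in the methods. The labels and the methods still differ, and which controls were used is not settled. Of the cardiomyocyte markers, 12 of 12 were above 0, with a summed mean of 1630 normalised reads. Of the skeletal muscle markers, 5 of 6 were above 0, with a summed mean of 1821, of which 1809 came from *Ttn*, which the heart also expresses. The summed means were 64.4 over 5 fibroblast, 33.5 over 4 erythroid, 22.8 over 4 endothelial, 16.1 over 4 smooth muscle and pericyte and 7.30 over 3 leukocyte markers, all of them above 0.

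Every level below is the authors' mean, that is, the normalised read count averaged over all 8 libraries of both genotypes. The table also has 8 columns of single libraries, but their names match neither a library nor a genotype of this series. They were used in no step, so knockout and wild-type hearts were not compared and the means are given without an SD or a test. *Rnaseh1* itself was listed at a mean of 0, so the targeted gene gave no check of the genotypes. In bulk RNA, fewer cells of a type and less RNA per cell cannot be told apart.

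Of 1507 snoRNA-type genes in the table, 1342 had a Gm symbol, and 167 of these had a mean above 0. Of the 167, 65 were set aside because they lie inside *Snhg14* (64 genes) or *Rian* (1 gene), long noncoding hosts of imprinted snoRNA clusters. This left 102 predicted genes, spread over 19 chromosomes. The level was used to choose them, so their levels are given as a description. The gene just inside the limit was *Gm26132*, with a mean of 0.0637, and 1175 Gm-named snoRNA genes just outside it were listed at 0. For low values the mean rests on very few reads. The 8 most frequent means above 0 in the whole table ran between 0.0637 and 0.193, as single reads in single libraries would give, and 16 of the 102 genes had one of these means. On that reading, a mean of 1 stands for 5.19 to 15.7 reads summed over the 8 libraries.

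The sequences of 4 of the 13 genes that reached a mean of 100 are shown, because they show the motifs that the levels are set against below, together with 2 named relatives of 1 of them. They are the sense strands of the GENCODE M21 transcripts (GRCm38), from 5′ to 3′, with the first TGATGA (the C box motif) and the last CTGA (the D box motif) in capitals. *Gm23344* lies at chr9:64175048-64175115 on the plus strand, *Gm24463* at chr9:89075336-89075407 on the plus strand, *Gm24494* at chr3:153911610-153911690 on the minus strand and *Gm25128* at chr17:35247175-35247250 on the plus strand. *Snord50a*, at chr9:88521529-88521600 on the minus strand, and *Snord50b*, at chr9:88521797-88521868 on the minus strand, are given beside *Gm24463*.
Gm23344: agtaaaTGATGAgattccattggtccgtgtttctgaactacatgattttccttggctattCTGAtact
Gm24463: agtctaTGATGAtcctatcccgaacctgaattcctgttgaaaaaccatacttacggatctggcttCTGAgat
Snord50a: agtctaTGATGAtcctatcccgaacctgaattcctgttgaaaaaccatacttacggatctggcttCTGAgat
Snord50b: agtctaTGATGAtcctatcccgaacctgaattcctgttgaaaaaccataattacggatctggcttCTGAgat
Gm24494: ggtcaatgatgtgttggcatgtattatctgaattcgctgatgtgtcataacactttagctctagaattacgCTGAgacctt
Gm25128: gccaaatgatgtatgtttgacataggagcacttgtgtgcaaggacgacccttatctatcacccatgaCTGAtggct
The first 4 lines hold both motifs, each close to its end of the RNA. *Gm24494* and *Gm25128* hold no TGATGA and have TGATGT at the corresponding place.

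The 102 genes together had a summed mean of 175885, which is 21.4% of the summed mean of all 54531 features and 29.2% of that of the snoRNA-type genes. The 86 snoRNA-type genes above 0 with other names held 51.9% of the total over all features. Genes inside *Gas5*, *Rian* and the Snhg genes were kept among these 86, of which 67 lay outside those hosts. The sum over the 102 genes rested on few of them. *Gm23344* alone held 29.6% of it, the first 2 genes 59.1%, the first 6 genes 96.8% and the first 20 genes 99.8%. The median over the 102 genes was 1.63, against 22.2 over the 86 snoRNA-type genes with other names. Means of at least 1000 were reached by 8 genes, of at least 100 by 13, of at least 10 by 28 and of at least 1 by 60. The plot of the ranked levels shows this steep decline.

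**Figure D1:**
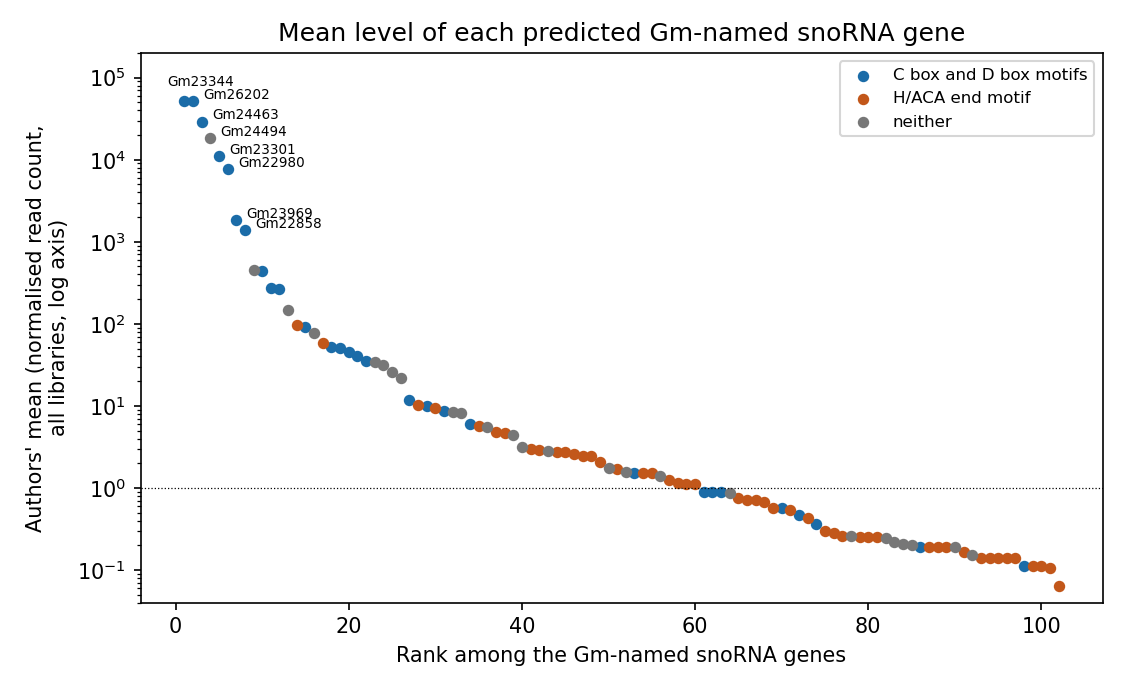
Authors' mean (normalised read count over all 8 libraries, log axis) of each of the 102 predicted Gm-named snoRNA genes, ordered by rank. Colours give the sequence motif class, and the 8 labelled genes are those that reached 1000. The level falls from 52099 for Gm23344 to 0.0637 for Gm26132, and the dotted line marks a mean of 1.

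Both genes at the top lie in introns of ribosomal protein genes. *Gm23344*, in *Rpl4*, had a mean of 52099, and *Gm26202*, in *Rpl17*, a mean of 51815. Next came *Gm24463*, with a mean of 29232, which lies in no annotated gene on its strand. *Gm24494*, in *Rabggtb*, which encodes a subunit of an enzyme that attaches lipid to Rab proteins, had 18335. *Gm23301*, a further gene of *Rpl17*, had 11042, and *Gm22980* had 7758. *Gm23969*, in *Rpl7a*, followed with 1825, and *Gm22858*, in the ribosome biogenesis gene *Wdr43*, with 1386. These 8 genes were 65 to 81 bases long, and 7 of them held both TGATGA and CTGA at some position, *Gm24494* being the exception. *Gm23969* also had TGATGT in its first 20 bases, and its TGATGA and CTGA did not both lie within 20 bases of their ends.

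The next 5 genes had means between 100 and 1000, and all lie in genes of translation, splicing or protein folding, or in *Ubap2*, which encodes a ubiquitin-binding protein. *Gm25128*, in the splicing helicase gene *Ddx39b*, had 452. *Gm24837*, in *Ubap2*, had 441. *Gm25970*, in the splicing factor gene *Prpf39*, had 277, and *Gm26457*, in the elongation factor gene *Eef1b2*, had 262. *Gm26109*, in *Hspa9*, which encodes a mitochondrial chaperone, had 146. The remaining 7 of the 20 highest genes lay between 45.8 and 97.5. Among them were *Gm25117* in the histone chaperone gene *Nap1l1* (97.5), *Gm22455* in *Rpl4* (91.6), *Gm24253* (77.3), *Gm22711* (57.9) and *Gm26287* in the snoRNP protein gene *Nop58* (52.5). The other 82 genes ran from 40.2 down to 0.0637, and the 74 genes under 10 had a summed mean of 132 in all.

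The predicted type was set against the sequence itself. The letters searched on the sense strand were TGATGA and CTGA at any position, and ACA followed by exactly 3 bases at the 3′ end. A gene with this ACA was counted as ACA-ended whether or not it held the other pair, which 2 genes did. Of the 102 genes, 29 held TGATGA and CTGA and were not ACA-ended, 48 were ACA-ended, and 25 were in neither class. As a reference for the letters, 45 of 57 Snord-named genes above 0 held TGATGA and CTGA (78.9%) and 16 of 18 Snora-named genes above 0 were ACA-ended (88.9%). Over all 1507 snoRNA-type genes the shares were 25.2% for TGATGA with CTGA and 18.3% for ACA, against 30.4% and 47.1% in the 102 genes. A match of letters is a description and does not show a working box.

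The classes differed widely in level. The 29 genes with the C and D motifs had a median level of 40.2 and held 89.0% of the summed level, and 17 of them reached 10. The 48 ACA-ended genes had a median of 0.714 and held 0.130% of the summed level. Only 3 of these 48 reached 10, namely *Gm25117* (97.5), *Gm22711* (57.9) and *Gm24233* (10.3), and 26 were under 1. The value of *Gm22711* is limited by an overlapping entry, described with its sequence below. The 25 genes of neither class had a median of 3.13 and held 10.9% of the summed level, nearly all of it from *Gm24494*. Within those 25, 9 carried TGATGT in the first 20 bases, among them *Gm24494*, *Gm25128*, *Gm22192*, *Gm25632* and *Gm24920*. This variant was searched after the sequences and levels had been seen. It was present in 12 of the 102 genes, 7 of the 57 Snord-named genes above 0 and 2.12% of all snoRNA-type genes.

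Length followed the same division. The median length was 76 bases for the genes with C and D motifs and 133 bases for the ACA-ended genes, and no ACA-ended gene was shorter than 121 bases. The 35 genes under 100 bases had a median level of 45.8, with 22 of them at 10 or more. The 67 genes of 100 bases or longer had a median of 0.867, with 6 at 10 or more. The libraries were made from small RNA, and the recovery of RNAs by length was not tested. Divided by gene length, the median was 0.369 normalised reads per base for the genes with C and D motifs and 0.00527 for the ACA-ended genes.

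**Figure D2:**
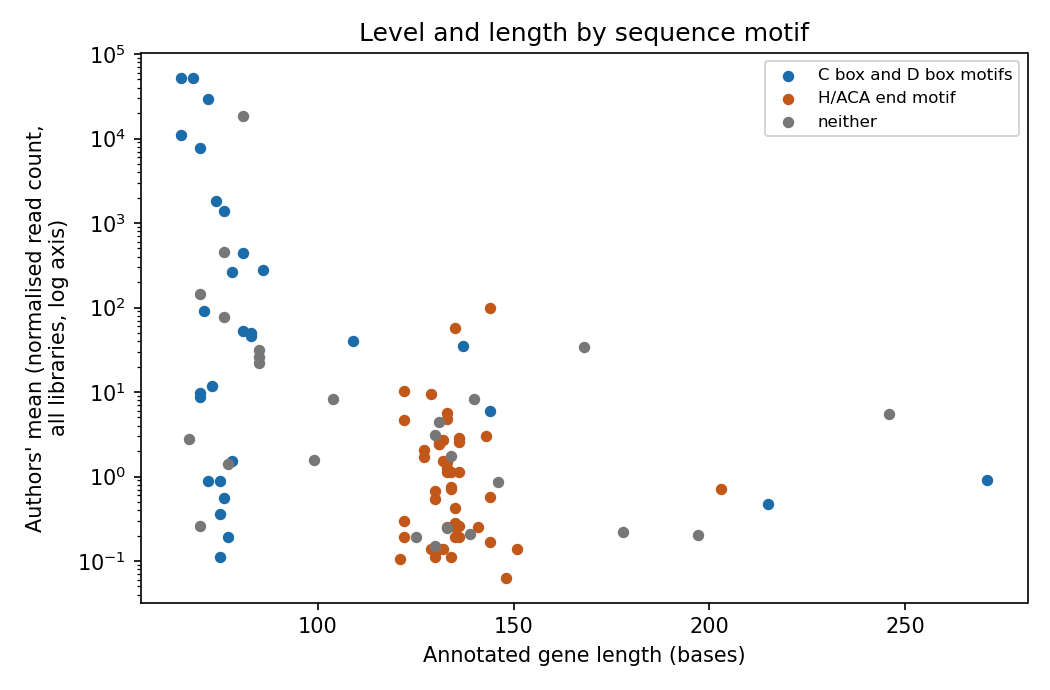
Authors' mean (normalised read count over all 8 libraries, log axis) against annotated gene length in bases, with 1 point for each of the 102 genes coloured by motif class. All genes with a mean of at least 100 are shorter than 100 bases, and the highest ACA-ended gene, Gm25117 (144 bases), has a mean of 97.5.

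The highest genes with ACA ends are shown because they stand far below the highest genes with C and D motifs. *Gm25117* lies at chr10:111481493-111481636 and *Gm22711* at chr11:106501243-106501377, both on the plus strand, and the capitals mark the ACA that is followed by 3 bases.
Gm25117: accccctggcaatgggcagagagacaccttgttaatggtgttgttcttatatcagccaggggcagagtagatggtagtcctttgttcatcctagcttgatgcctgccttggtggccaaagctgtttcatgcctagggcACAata
Gm22711: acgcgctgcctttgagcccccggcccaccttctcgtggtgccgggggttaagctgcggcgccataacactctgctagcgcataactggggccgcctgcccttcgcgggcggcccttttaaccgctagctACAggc
*Gm25117* shared 133 of its 144 bases with *Gm25291*, a gene of *Sec24a* that had a mean of 0.167. *Gm22711* had no same-strand host, and it overlapped a second, shorter entry of the same name that was listed at 0. That entry (chr11:106501245-106501377) covers all but the first bases of *Gm22711*. The counting tool by default leaves a read uncounted when it overlaps exons of several genes. The mean of 57.9 therefore cannot be taken as the level of the whole RNA.

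Position in a host gene was common to most of the 102 genes and was not part of the choice, apart from the hosts set aside. Of the 102 genes, 81 (79.4%) lay wholly inside another gene on the same strand, 79 of them in protein-coding genes. With *Gas5*, *Rian* and the Snhg genes set aside in the same way, this held for 214 of 1023 Gm-named snoRNA genes at 0 (20.9%) and for 59 of 67 other-named snoRNA-type genes above 0 (88.1%). With those hosts kept, it held for 146 of 167 Gm-named genes above 0 (87.4%), 366 of 1175 Gm-named genes at 0 (31.1%) and 78 of 86 other-named genes above 0 (90.7%). The 81 hosted genes lay in 70 different hosts, 8 of which held more than 1 of them. They overlapped no exon of another annotated entry on their strand in 64 cases and overlapped one in part in 17 cases.

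The hosts were sorted by what their proteins do, a sorting made after the levels had been seen. Ribosomal protein genes hosted 12 of the 102 genes in 7 hosts, with a median of 50.8 and a summed mean of 124646. Among these 12, the genes with C and D motifs ran from 9.86 to 52099. The ACA-ended genes were *Gm22270* (2.74), *Gm26448* (0.714), *Gm26387* (0.138) and *Gm24888* (0.138), and *Gm23136*, of neither class, had 1.57. Host role and motif class were not separated. Genes of ribosome biogenesis and splicing hosted 5, with a median of 277. Genes of translation and mRNA binding hosted 13, with a median of 2.88. Genes of mitochondrial proteins hosted 9, between 0.202 and 146, and only *Gm26109* in *Hspa9* (146) and *Gm22486* in *Ptcd3* (34.8), which encodes a mitochondrial ribosome-associated protein, reached 10 among them. The 42 genes in other hosts had a median of 1.32, and the 21 genes with no same-strand host a median of 0.260.

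snoRNA genes of 1 host had widely different levels. In *Rpl17* all 3 snoRNA genes were free of exons, and in the order of transcription *Snord58b* had a mean of 494, *Gm23301* a mean of 11042 and *Gm26202* a mean of 51815, while *Rpl17* itself had 0.523. *Gm23301* shared 53 of its 65 bases with *Gm26202* and 56 with *Snord58b*, so the 3 are related in sequence and differ in level by large factors. In *Ubap2*, *Gm24837* had 441, against 1.53 for *Gm23090* and 1.39 for *Gm22888*. *Gm23090* lies partly in a *Ubap2* exon, so some of its reads may have been left uncounted. *Gm24837* and *Gm22888* lie in no same-strand exon. In *Wdr43*, *Gm22858* had 1386, against 231 for *Snord92* and 53.9 for *Snord53*, with which it shared 57 of 76 bases. In *Nop58*, *Gm26287* had 52.5, against 383 for *Snord70* and 26.5 for *Snord11*. In *Hspa9*, *Gm26109* had 146 and *Gm22200* had 2.81.

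*Rpl4* held the most of the 102 genes, and 3 of its 4 are close relatives, shown here with the C and D motifs in capitals beside *Gm23344* above. *Gm22571* lies at chr9:64175873-64175942 and *Gm22455* at chr9:64177123-64177193, both on the plus strand.
Gm22571: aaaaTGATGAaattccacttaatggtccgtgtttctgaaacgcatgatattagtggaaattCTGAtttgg
Gm22455: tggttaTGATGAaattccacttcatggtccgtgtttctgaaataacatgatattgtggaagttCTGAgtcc
*Gm22571* shared 57 of its 70 bases with *Gm22455* and 51 with *Gm23344*, and all 3 hold the run tggtccgtgtttctgaa of 17 bases. Their means were 52099 for *Gm23344*, 9.86 for *Gm22571* and 91.6 for *Gm22455*. The remaining gene, *Gm23136*, had 1.57 and shared 88 of its 99 bases with *Snord16a* of the same host, which was listed at 0. *Snord16a* lay wholly inside an exon of an *Rpl4* transcript with a retained intron, and *Gm22455* in part.

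**Figure D3:**
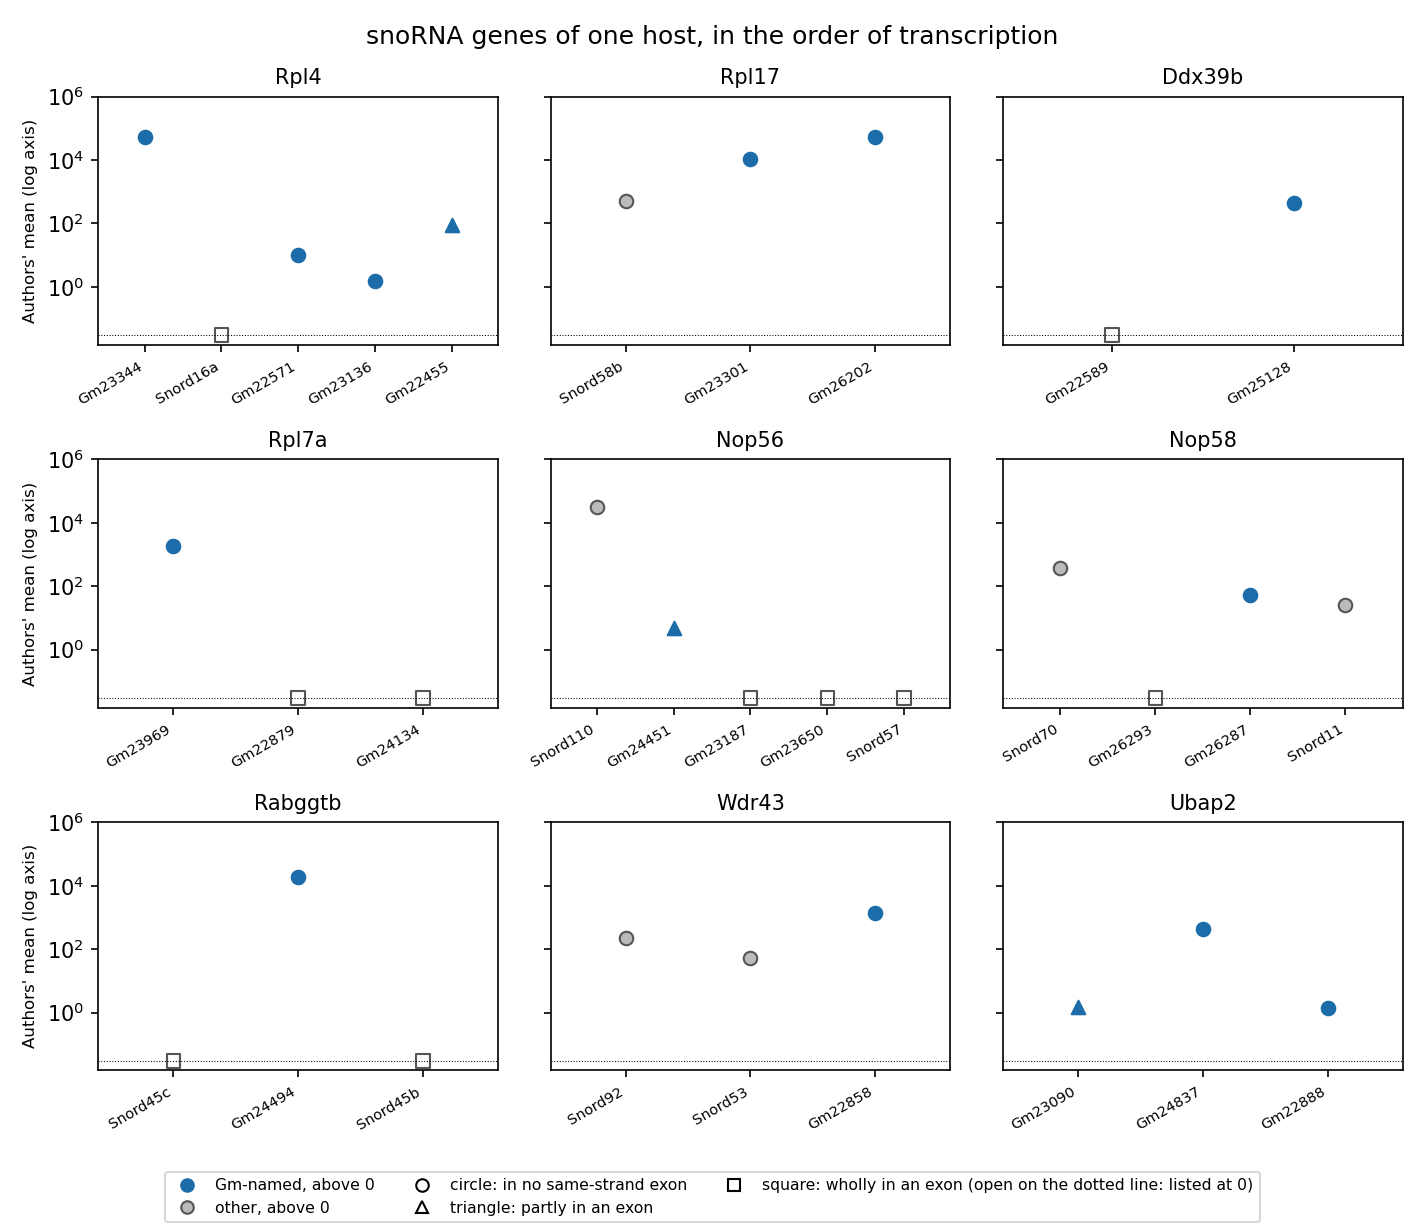
Authors' mean (normalised read count over all 8 libraries, log axis) of every snoRNA gene in 9 host genes, in the order of transcription. Filled blue symbols are predicted Gm-named genes above 0, filled grey symbols other snoRNA genes above 0, and open symbols on the dotted line genes listed at 0. Circles, triangles and squares stand for genes that lie in no same-strand exon, partly in one, or wholly in one, and all squares are at 0.

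Genes listed at 0 also stood beside very high ones in the same host. In *Rabggtb*, *Gm24494* had 18335, whereas *Snord45c* and *Snord45b* on either side of it were at 0. In *Rpl7a*, *Gm23969* had 1825, whereas *Gm22879* and *Gm24134* were at 0. In *Ddx39b*, *Gm25128* had 452, whereas *Gm22589*, which shares 60 of the 76 bases of *Gm25128*, was at 0. In *Nop56*, *Gm24451*, which lies partly in a host exon, had 4.74. *Snord110*, which lies in no exon, had 31770, whereas *Gm23187*, *Gm23650* and *Snord57* were at 0. Each of these genes at 0 lay wholly inside a same-strand exon of its host in at least 1 annotated transcript, for *Gm23650* and *Snord57* only one with a retained intron.

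This held throughout the snoRNA-type genes. Of 88 Gm-named genes wholly inside a same-strand exon of another gene, 0 had a mean above 0, and the same was true of 68 genes with other names. Of Gm-named genes partly inside such an exon, 19 of 39 had reads (48.7%), and of those clear of exons 148 of 1215 (12.2%). Of other-named genes clear of exons, 72 of 78 had reads (92.3%). The counting tool by default leaves a read uncounted when it overlaps exons of more than 1 gene, and the options stated in the methods name only strand. A mean of 0 in these 156 genes cannot be told apart from reads left uncounted. Of the 102 genes, 83 were clear of same-strand exons, with a median of 1.57 and 12 genes at 100 or more, and 19 lay partly in one, with a median of 4.74 and 1 gene at 100 or more. That gene was *Gm26457*, which overlaps a shorter second entry of the same name, itself listed at 0. In 4 of the 19 genes, and in 22 of the 156 genes wholly inside an exon, the overlapping entry was a second snoRNA entry of the same name and nothing else.

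**Figure D4:**
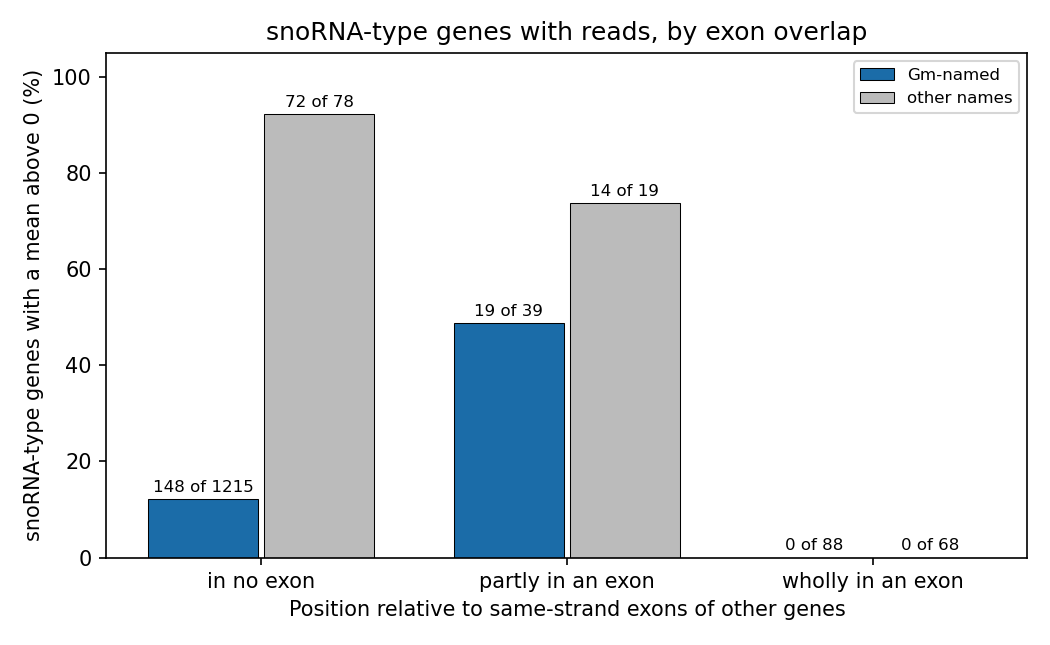
Percent of snoRNA-type genes with a mean above 0, for Gm-named genes and genes with other names, by position relative to same-strand exons of other genes. Numbers above the bars are genes with a mean above 0 and genes in all. No gene wholly inside an exon has a mean above 0 (0 of 88 and 0 of 68), which cannot be told apart from reads left uncounted.

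The hosts' own means moved with the same overlap, in a comparison made after the levels had been seen. The 11 hosts with a snoRNA gene wholly inside one of their exons had a median mean of 25.3 and a highest of 3078 (*Rpl7a*). The 59 hosts without one had a median of 1.19 and a highest of 21.8. Of the 81 hosted genes, 46 had a mean above that of the host and 35 had one at or below it. How far reads of snoRNAs enter the counts of host exons was not tested.

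Near-identical copies limit what a level of 1 gene means, since a read that matches several places equally is assigned to 1 of them by the aligner's default. Of the 102 genes, 34 had an annotated copy elsewhere that was at least 95% identical over at least 90% of their length. The copy was itself among the 102 for 18 genes, and for 12 genes every copy was at 0. Of the different copies outside the 102 genes, 36 were at 0. Among these 36, 23 lay wholly inside a same-strand exon and 9 overlapped none. A mean of 0 in those 23 cannot be told apart from reads left uncounted. Of the 13 genes that reached a mean of 100, only *Gm24463* had a copy.

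*Gm24463* is the clearest case. All 72 of its bases are identical to *Snord50a*, and *Snord50b*, *Gm23017* and *Gm26135* share 71 of the 72. *Gm24463* had a mean of 29232, whereas all 4 relatives were listed at 0, and all 4 lie wholly inside a same-strand exon of a long noncoding gene, while *Gm24463* does not. The level of *Gm24463* therefore cannot be told apart from reads of *Snord50a*, whose sequence it shares. *Gm24253*, with a mean of 77.3 and no same-strand host, matched *Snord1c* at 73 of its 76 bases and *Snord1b* at 71, both at 0. *Snord1c* and *Snord1b* also lie wholly inside a same-strand exon of another gene. Their 0 cannot be told apart from reads left uncounted.

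Other genes share their whole sequence with another of the 102. The identical genes *Gm22192* and *Gm25632* lie in *Prrc2b*, at chr2:32221970-32222054 and chr2:32225653-32225737 on the plus strand, and had means of 31.6 and 26.1. Their sequence is given once because it stands for both genes, with the D box motif in capitals.
Gm22192: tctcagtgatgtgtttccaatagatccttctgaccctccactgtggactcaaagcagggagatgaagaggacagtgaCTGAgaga
*Gm24920*, in *Pip5k1a* on another chromosome, shares 84 of the 85 bases of both and had 21.8. Which of the identical genes produced the reads cannot be told apart.

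Some of the predicted genes resemble a named snoRNA without being a copy. *Gm24494* shared 68 of its 81 bases with *Snord45c*. *Gm23734*, in *Mgat5*, shared 97 of its 109 bases with *Snord8* and had a mean of 40.2, against 52.2 for *Snord8*. *Gm22354*, with no host, shared 66 of its 70 bases with *Snord58b* and had a mean of 0.260, against 494 for *Snord58b*. *Gm22486* lies at the coordinates where RefSeq gives the symbol *Snord94*. Of the 102 genes, 95 had a RefSeq entry with the same start and end, and 76 had the same symbol there. For *Gm23969*, *Gm25970*, *Gm26457* and *Gm26109*, no other annotated snoRNA passed the search for similar sequence.

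The 21 genes without a same-strand host were mostly low. Besides *Gm24463*, *Gm24253* and *Gm22711*, the highest was *Gm23787*, with a mean of 11.8. It is 1 of 5 genes that lie between *Rian* and *Mirg* on chromosome 12, in the imprinted region whose maternal RNAs carry many snoRNAs. The other 4, *Gm25856*, *Gm25854*, *Gm22981* and *Gm23736*, had means of 0.897, 0.886, 0.359 and 0.112, and all 5 held TGATGA and CTGA.

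The genes of proteins that bind and mature snoRNAs gave little signal in these small RNA libraries. The values are small RNA reads, and protein levels were not measured. Of 21 listed genes, 20 had a mean above 0, *Ruvbl1*, a helicase of snoRNP assembly, being at 0. *Nop56*, a core protein of box C/D particles, had a mean of 104.9. The other 19 were at 0.767 or lower, including *Fbl*, the methyltransferase of those particles, at 0.663, and *Dkc1*, the pseudouridine synthase of H/ACA particles, at 0.516. *Nop56* also hosts 5 snoRNA genes, 3 of them wholly inside its exons.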

How the data were processed

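Per the labels, small RNA was extracted with a miRNeasy kit and made into Illumina small RNA libraries. Per the methods and the submitters' processing notes, single-end reads were aligned to mm10 (GRCm38) with Bowtie2 2.3.4.1 at default settings, counted by strand with featureCounts 1.6.3 on Ensembl release 94 with an in-house mitochondrial annotation, and normalised with DESeq2 1.18.1 in R 3.5.1. The authors deposited 1 table, whose mean column holds a signal (reads divided by size factors, averaged over 8 libraries). This column, the names, types and coordinates were used. The 8 columns of single libraries were not used, because their names match no label, so library depths were not analysed here. Further columns hold the authors' own comparison of the genotypes (fold change, its error, statistic and p-values) and were not used. No comparison of genotypes was made, and no test was run.

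Genes were taken if their type is snoRNA, the name is Gm with digits, the mean is above 0 and they lie outside *Gas5*, *Rian* and Snhg genes. The rule was applied through the mean column. All 102 matched GENCODE M21 in start and end; hosts, exons and sequences come from it. The exons of GENCODE M21 may differ from those counted. Copies were searched with blastn 2.17.0 (word size 7, E value at most 0.001; 95% identity over 90% of the gene), and the identity it returns was checked on simulated sequences. Tables were made with Python 3.11.15 and pandas 2.3.3. Named were the 20 genes of highest mean, genes with an identical copy, genes at the limit of the rule and their closest named snoRNAs; further genes were named after their values had been seen. Members, lists and groups were chosen with earlier results of these data known. Some genes within these rules are not reported here.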

Additional observations from a re-analysis of the deposited data

How the results depend on the processing

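The number of predicted genes depended on the limit of the mean: 102 were above 0, 60 had a mean of at least 1 and 28 of at least 10. Genes with a copy elsewhere numbered 34, against 6 when the aligned bases had to be 100% identical (48 at 90% identity, and 35 with entries at the same place counted, an alternative chosen after seeing the data). The counts of genes inside a host (81; 84 on either strand; 81 with any overlap) and of genes with TGATGA and CTGA (31; 24 with each motif within 20 bases of its end) stayed within 1.5 times, and 102 genes were also left when hosts were set aside on the same strand only. With the mean, with the mean per base and among genes with a mean of at least 1, 5 genes held 90% of the summed level. No paired analysis was possible because the columns of single libraries could not be assigned to libraries of this series by name. They were therefore used in no step, and other pseudocounts, filters, scalings, other tests and leaving out each library were not run. The means are given without an error, and low means rest on a few reads.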

Other observations

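The 65 Gm-named snoRNA genes set aside for their host were low throughout. The 64 in *Snhg14*, the host of the imprinted Snord115 and Snord116 clusters, had a highest mean of 1.15, a median of 0.193 and a summed mean of 21.0. The 1 in *Rian* had a mean of 0.193.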
